A study of Mus musculus with 8 samples.

Results

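The genes described here encode the subunits of voltage-gated and related potassium, sodium and calcium channels. They were chosen by name: every probe set with a single gene symbol in the array annotation that starts with Kcn, with Cacn, or with Scn and a digit. The rule found 252 probe sets of 119 genes, among 34945 probe sets of 18193 genes with a single symbol. Kcn symbols made up 84 genes and 167 probe sets, Scn symbols 11 genes and 30 probe sets, and Cacn symbols 24 genes and 55 probe sets. More than 1 probe set measured 72 of the 119 genes, with at most 6 for a gene. The name does not always mean a channel. Kcnq1ot1, with 6 probe sets, is a non-coding RNA of the imprinted Kcnq1 region. Kcnmb4os1 and Kcnmb4os2 are by their symbols opposite-strand transcripts of Kcnmb4 and were counted with the members. Several Cacng genes encode proteins that bring glutamate receptors to the membrane.

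Voltage-gated channels open a pore for potassium, sodium or calcium when the membrane potential changes. Alpha subunits form the pore, and beta, gamma, alpha2delta, KCNE and Kv4-interacting proteins bind them and set their transport to the membrane, their gating or their inactivation. Inward rectifiers and the K2P leak channels have no voltage sensor of this kind and help set the resting potential. Such channels are best known from nerve and muscle, and calcium entering through them also controls secretion and transcription in other cells.

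RNA of mouse gonads at embryonic day 13 was hybridised to 8 Affymetrix Mouse Genome arrays, 2 for each of 4 groups. Sertoli cells and pre-granulosa cells are the supporting cells that enclose the germ cells of the testis and the ovary, and here they are EGFP-positive cells sorted out of XY and XX gonads of the transgenic line C57BL6/J-Tg92. Each Sertoli sample held about 22000 sorted cells and each pre-granulosa sample about 30000. The other groups were whole testes and whole ovaries of the same line, age and transgene, with 4 gonads pooled per sample. The labels do not give the promoter that drives EGFP, and separate litters or animals are not stated for replicates. The p-values therefore set group differences against the spread between these particular samples, which may not include the variation between animals.

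Values are log2 levels as deposited. The standard deviation between replicates, as a root mean square over the 252 channel probe sets, was 0.352 in Sertoli cells, 0.413 in pre-granulosa cells, 0.178 in testes and 0.288 in ovaries. In the 4 XX arrays, which lack a Y chromosome, 9 probe sets of Uty, Kdm5d and Eif2s3y reached 4.78 at most, and that value is used as the background level. The mean of 10 Sertoli markers was 11.15 and 11.25 on the Sertoli arrays, 7.31 and 7.95 on the pre-granulosa arrays, 10.70 and 10.72 on the testis arrays and 7.04 and 6.99 on the ovary arrays. The mean of 8 pre-granulosa markers was 5.97 and 5.74 on the Sertoli arrays, 10.16 and 9.64 on the pre-granulosa arrays, 6.41 and 6.46 on the testis arrays and 9.62 and 9.54 on the ovary arrays. Markers of other cells differed between the groups, and their values stand beside each comparison. Among them, 8 of 9 measured germ cell markers were lower in both sorted populations than in the gonads, and 6 of 9 read at or under background on both arrays of each sorted population. The difference between the 3′ and 5′ probe sets of Gapdh, a measure of RNA quality, was 1.94 and 2.69 on the Sertoli arrays, 3.68 and 1.24 on the pre-granulosa arrays, 0.72 and 0.95 on the testis arrays and 1.55 and 1.40 on the ovary arrays, so replicate 1 of the pre-granulosa cells had the largest.

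Most channel genes had low levels on these arrays. On both arrays of at least 1 group, 21 channel probe sets of 17 genes were above log2 8, or 8.33% of the members, against 28.4% of all tested probe sets. At the other end, 76 members (30.2%) read at or under the background level on all 8 arrays, against 20.9% of all probe sets. Above 8 were 11 probe sets of 7 genes in Sertoli cells, 7 of 4 genes in pre-granulosa cells, 14 of 14 genes in testes and 14 of 11 genes in ovaries. Next to the threshold, Kcne1l was just inside with a lower testis array of 8.02, and a probe set of Scn2b was just outside with 7.98.

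The 16 channel genes above 8 came from most families. They were the voltage-gated potassium pores Kcnd3 and Kcnh1, the K2P leak channels Kcnk1, Kcnk3 and Kcnk5, the G protein-gated inward rectifier Kcnj3, the calcium-activated Kcnma1, the sodium-activated Kcnt1, the accessory subunits Kcne1l and Kcne4, the calcium pores Cacna1d and Cacna1h, Cacna2d1 and Cacna2d2, Cacng8, and the sodium channel beta subunit Scn2b. None of the 24 probe sets of 8 sodium channel alpha genes was above 8 in any group. The same held for the 9 probe sets of calcium channel beta genes and the 12 of Kv4-interacting genes.

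**Figure D1:**
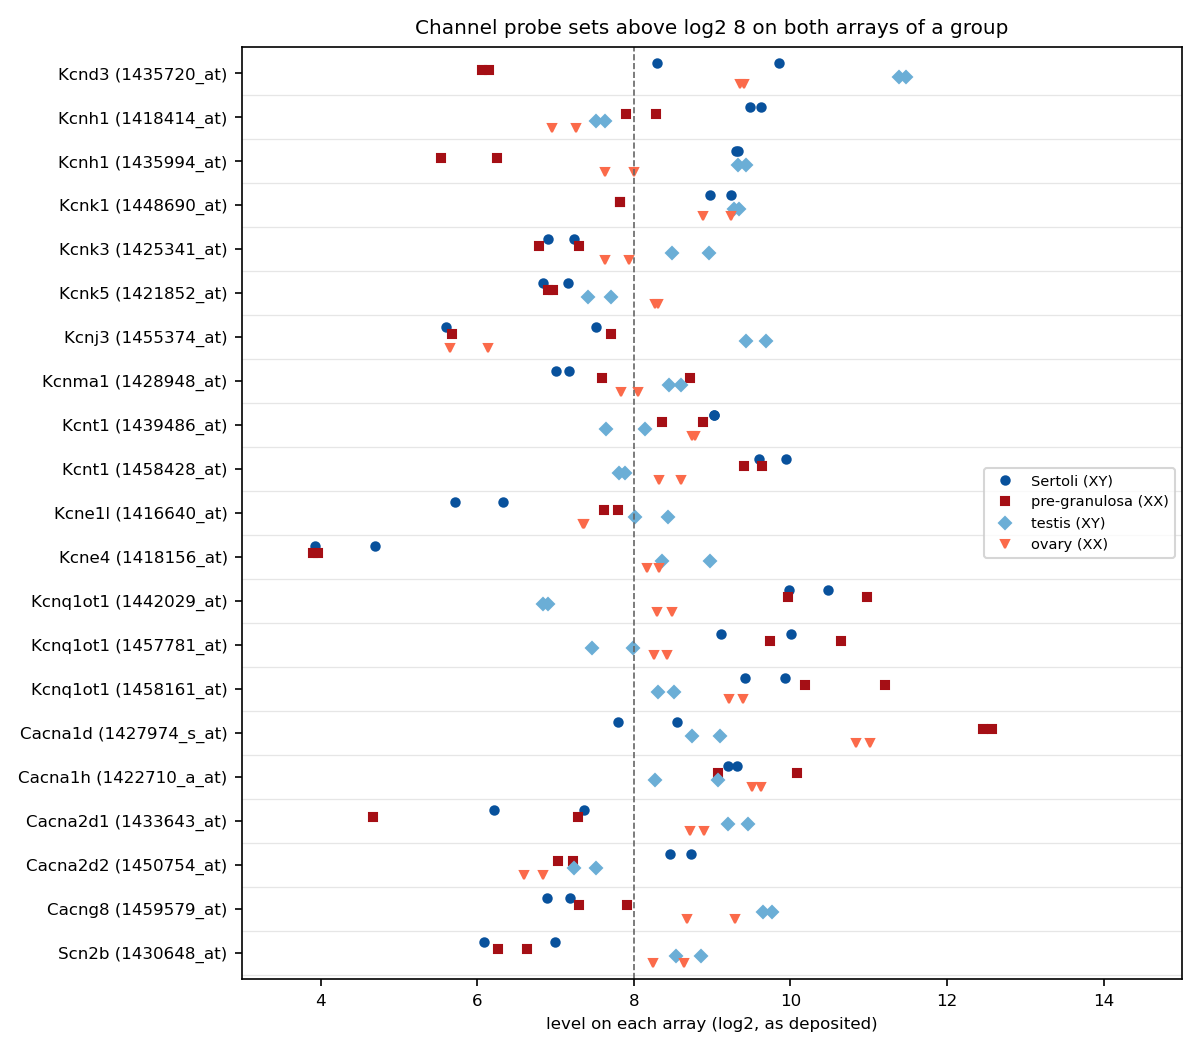
Level on each array (log2, horizontal axis) of the 21 channel probe sets that were above log2 8 on both arrays of a group; colours and shapes give the 4 groups, 2 points each, and the dashed line marks 8. Cacna1d lies at 12.46 and 12.57 in pre-granulosa cells and at 8.55 and 7.79 in Sertoli cells, and Kcne4 lies above 8 in testes and ovaries and between 3.91 and 4.70 in the sorted cells.

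The design first asks which channel genes differ between the XY and XX supporting cells. In Sertoli cells against pre-granulosa cells, Cacna1d and Kcnip4 were lower and Kcnh1 was higher. These were 3 probe sets of 3 genes at an adjusted p of 0.01 in limma's test over all probe sets. The 2 lower calls were 0.794% of the members, against 0.813% of all probe sets called lower, and the 1 higher call was 0.397%, against 0.999%, so the share of called members was not above the background. A difference over 1 log2 unit was seen for 24 members (9.52%), against 13% of all probe sets. The median difference was 0.00 over the members and 0.01 over all. With only the 4 sorted arrays in the fit, which leaves fewer degrees of freedom, 0 members and 0 of all probe sets were called.

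Genes listed as markers of other cells also differed between the sorted populations. Of 9 macrophage markers the complement gene C1qb was called higher in Sertoli cells than in pre-granulosa cells (4.49, limma adjusted p = 0.00504), and the list averaged 6.02 and 7.71 on the Sertoli arrays, against 4.92 and 4.79 on the pre-granulosa arrays. None of 4 steroidogenic markers was called, while their averages were 8.23 and 9.39 in Sertoli cells, against 6.92 and 6.47 in pre-granulosa cells. Of 9 endothelial markers Robo4 was higher (at least 2.37, limma adjusted p = 0.00842), with list averages of 6.11 and 6.38 in Sertoli cells, against 4.83 and 5.91. Of 9 genes listed for neurons and glia the transcription factor Sox10 was higher (4.38, limma adjusted p = 0.000869). The list averaged 6.08 and 5.64 on the Sertoli arrays, against 5.06 and 5.05 on the pre-granulosa arrays. Sox10 itself read 10.05 and 9.83 on the Sertoli arrays and 7.38 and 7.47 on the testis arrays. Whether Sertoli cells or glia carried it was not tested. Within that list Fabp7, Th and Snap25 were lower in Sertoli cells and the rest higher, and none of these beside Sox10 was called. In these 4 lists the Sertoli averages lay above the pre-granulosa averages, and no germ cell, interstitial or erythroid marker was called. The part of such cells in the channel differences that follow was not tested.

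Cacna1d encodes the pore of an L-type calcium channel that opens at relatively negative voltages and is known from pacemaker cells of the heart and from hair cells of the ear. Its probe set 1427974_s_at read 8.55 and 7.79 on the Sertoli arrays, 12.46 and 12.57 on the pre-granulosa arrays, 8.74 and 9.10 on the testis arrays and 11.01 and 10.84 on the ovary arrays. The XX arrays were above the XY arrays in both tissues, with no overlap. Sertoli cells averaged 8.17 ± 0.53, against 12.52 ± 0.07 in pre-granulosa cells (SD, n = 2 arrays each), and the difference was -4.35 ± 0.275 (SE, limma adjusted p = 0.00143), or 20.3-fold lower in Sertoli cells. The call was kept whichever 1 of the 8 arrays was left out. Testes minus ovaries gave -2.01 (limma adjusted p = 0.0431), which misses the threshold. A second probe set, 1428051_a_at, lay between 4.90 and 5.33 on all 8 arrays and showed no such difference, so the result rests on 1 of 2 probe sets for the gene.

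RefSeq gives 2 start sites for Cacna1d in the promoter table of GRCm38.p6, and they differ in base composition. The promoter of the upstream start is shown because it is the AT-rich one and holds a SOX motif. It covers 250 bases before and 50 after the start, on the minus strand at chr14:30491107-30491406. Capitals mark the SOX motif AACAAT, read here on the opposite strand, 211 bases before the start.
Cacna1d upstream promoter: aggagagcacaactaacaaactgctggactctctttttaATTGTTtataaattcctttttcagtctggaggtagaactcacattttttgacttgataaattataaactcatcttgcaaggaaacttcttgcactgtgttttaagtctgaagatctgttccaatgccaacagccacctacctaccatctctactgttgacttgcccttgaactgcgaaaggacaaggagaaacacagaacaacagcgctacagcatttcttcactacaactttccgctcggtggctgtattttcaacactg
Its GC content is 40.3%, with 4 CpG sites, while the other start at chr14:30353437-30353736 has 87.3% GC, 63 CpG sites and none of the 3 motifs searched. Which start was used in these cells was not measured.

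Calcium leaves internal stores through inositol trisphosphate and ryanodine receptors, which are not members by name and were taken as a list of 14 store release and store-operated entry genes, 10 of them measured. In Sertoli cells against pre-granulosa cells 2 of these 10 were called, both lower, against 0.813% of all probe sets, and in testes against ovaries none was. The list was chosen with earlier results of these data known, and only the brightest probe set of each gene was read. These shares are therefore not a test of enrichment. Itpr2, an inositol trisphosphate receptor, was at 6.08 and 5.72 in Sertoli cells, at 10.20 and 9.97 in pre-granulosa cells, at 6.39 and 6.09 in testes and at 8.01 and 7.85 in ovaries. That is -4.18 ± 0.201 in Sertoli minus pre-granulosa (SE, limma adjusted p = 0.00089), and as for Cacna1d the XX arrays were above the XY arrays in both tissues. Ryr1, the ryanodine receptor that L-type channels open in skeletal muscle, gave 4.65 and 5.02 with Sertoli RNA, 9.25 and 8.13 with pre-granulosa RNA, 7.24 and 6.93 with testis RNA and 8.45 and 8.0 with ovary RNA. Its difference was -3.86 ± 0.39 (SE, limma adjusted p = 0.00522), again with no overlap in either tissue. Ryr2 just missed the threshold, at least 2.62 lower in Sertoli cells, whose arrays were under background (limma adjusted p = 0.0101). The other measured receptors of these kinds, Itpr3 (-0.63) and Ryr3 (0.37), were not called.

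Kcnh1 encodes an ether-à-go-go potassium channel, normally most abundant in brain. Probe set 1435994_at read 9.31 and 9.33 on the Sertoli arrays, 5.54 and 6.25 on the pre-granulosa arrays, 9.43 and 9.33 on the testis arrays and 8.0 and 7.63 on the ovary arrays. Here the XY arrays were the high ones, and pre-granulosa cells were below every other array. Sertoli cells averaged 9.32 ± 0.01 and pre-granulosa cells 5.90 ± 0.50 (SD, n = 2 arrays each), a difference of 3.42 ± 0.262 (SE, limma adjusted p = 0.00223), or 10.7-fold. In testes minus ovaries it was 1.57 (limma adjusted p = 0.0828). Leaving out 6 of the 8 arrays, 1 at a time, ended the call, with adjusted p-values up to 0.0772 over all alternatives. A second probe set, 1418414_at, was at 9.48 and 9.62 in Sertoli cells, at 8.28 and 7.90 in pre-granulosa cells, at 7.51 and 7.63 in testes and at 7.26 and 6.95 in ovaries. Its difference went the same way, at 1.47 (limma adjusted p = 0.012).

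The Kcnh1 promoter of RefSeq (GRCm38.p6, plus strand, chr1:192190527-192190826) is shown for its single match to AAGGTCA, the core that the gonadal nuclear receptor NR5A1 binds. In capitals is that match, on the opposite strand, 223 bases before the start.
Kcnh1 promoter: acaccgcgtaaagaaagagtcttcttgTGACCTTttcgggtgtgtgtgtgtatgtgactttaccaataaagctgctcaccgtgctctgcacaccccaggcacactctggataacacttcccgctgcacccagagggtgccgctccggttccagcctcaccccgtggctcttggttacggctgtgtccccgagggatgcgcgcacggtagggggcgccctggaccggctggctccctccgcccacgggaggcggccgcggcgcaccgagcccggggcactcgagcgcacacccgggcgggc
Of 126 member promoters of 91 genes, 6 held AAGGTCA (4.76%), against 4.72% of 32851 promoters. The SOX motif AACAAT was in 8 (6.35%), against 10.7% of all, and the forkhead motif TGTTTAC in 0, against 3.65%. Both strands were searched. Median GC content was 57.8% in member promoters and 52.7% in all. A match is a string of letters and not a measured binding site.

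The Kv4 channels carry fast, transient potassium currents. Kcnd1, Kcnd2 and Kcnd3 form their pores, and the calcium-binding proteins Kcnip1 to Kcnip4 attach to them. Kcnip4 probe set 1437631_at gave 3.85 and 3.80 with Sertoli RNA, 7.26 and 7.07 with pre-granulosa RNA, 4.83 and 4.39 with testis RNA and 7.05 and 7.46 with ovary RNA. Both Sertoli arrays were under background, and the XX arrays exceeded the XY arrays by more than 2 log2 units in both tissues. Against the background level, Kcnip4 was at least 2.38 log2 units (5.20-fold) lower in Sertoli cells than in pre-granulosa cells (limma adjusted p = 0.00155). In testes minus ovaries the difference was -2.65 ± 0.219 (SE, limma adjusted p = 0.00852), a call that was lost whichever 1 of the 8 arrays was left out, with adjusted p-values from 0.00185 to 0.0985 over all alternatives. The other Kcnip4 probe sets, 1450370_a_at and 1451840_at, were not called, and their Sertoli arrays too were all under background.

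Kcnd3 and Kcnd2 lay on opposite sides of this comparison. Kcnd3 probe set 1435720_at read 9.85 and 8.30 on the Sertoli arrays, 6.06 and 6.15 on the pre-granulosa arrays, 11.38 and 11.47 on the testis arrays and 9.41 and 9.36 on the ovary arrays. The XY arrays were above the XX arrays in both tissues, by 2.97 ± 0.461 in the sorted cells (SE, limma adjusted p = 0.0198) and 2.04 in the gonads (limma adjusted p = 0.182), and neither was a call. The 2 Sertoli arrays differed by more than 1 log2 unit, and the other 3 Kcnd3 probe sets lay between 3.21 and 4.94 on all arrays. Kcnd2, named after its values were seen because it is the sister pore, had a probe set (1450773_at) that read 4.08 and 3.86 on the Sertoli arrays, 6.52 and 6.91 on the pre-granulosa arrays, 6.42 and 6.0 on the testis arrays and 8.72 and 7.49 on the ovary arrays. Its XX arrays were the higher ones in both tissues. That held with no overlap for another Kcnd2 probe set, 1422834_at, and not for 1422835_at and 1447764_at. The Sertoli arrays were under background, at least 1.93 lower than the pre-granulosa arrays (limma adjusted p = 0.0176), and testes were 1.90 lower than ovaries (limma adjusted p = 0.164).

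The promoters of this pore pair and of its partner are shown side by side (RefSeq, GRCm38.p6: Kcnd3 at chr3:105451640-105451939, plus strand; Kcnd2 at chr6:21215096-21215395, plus strand; Kcnip4, 1 of 2 starts in the table, at chr5:49285610-49285909, minus strand). Capitals mark a SOX motif on the opposite strand in Kcnip4, 165 bases before the start, and the Kcnd3 and Kcnd2 windows hold none of the 3 motifs searched. The other Kcnip4 start, at chr5:48599633-48599932, holds none of them either and is not shown.
Kcnd3 promoter: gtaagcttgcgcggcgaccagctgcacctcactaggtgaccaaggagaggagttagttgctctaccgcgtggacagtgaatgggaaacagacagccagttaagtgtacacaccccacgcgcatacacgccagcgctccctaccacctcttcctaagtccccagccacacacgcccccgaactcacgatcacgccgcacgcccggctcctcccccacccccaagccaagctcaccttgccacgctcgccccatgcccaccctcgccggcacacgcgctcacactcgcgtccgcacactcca
Kcnd2 promoter: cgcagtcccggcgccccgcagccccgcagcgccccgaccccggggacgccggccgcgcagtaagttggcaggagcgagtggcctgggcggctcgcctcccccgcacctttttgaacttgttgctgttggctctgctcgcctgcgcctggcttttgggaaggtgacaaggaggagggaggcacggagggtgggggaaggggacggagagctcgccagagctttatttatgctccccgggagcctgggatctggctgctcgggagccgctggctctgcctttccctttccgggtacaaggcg
Kcnip4 promoter: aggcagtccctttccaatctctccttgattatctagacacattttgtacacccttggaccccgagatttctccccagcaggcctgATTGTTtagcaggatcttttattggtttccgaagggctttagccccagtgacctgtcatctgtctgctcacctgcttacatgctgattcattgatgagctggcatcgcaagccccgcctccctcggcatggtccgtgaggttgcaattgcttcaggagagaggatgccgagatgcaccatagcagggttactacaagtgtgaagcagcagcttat

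Seen in the whole gonads, the XY and XX differences were called for 2 members. Kcns2 was higher and Kcnip4 lower in testes than in ovaries. These are 0.397% of members in each direction, against 0.155% of all probe sets called higher and 0.06% called lower, and at 1 probe set each the shares cannot be read further. Over 1 log2 unit apart were 19 members (7.54%), against 4.93% of all. Kcns2 encodes a silent subunit that forms no channel alone and modifies the Kcnb pores. Its probe set 1457325_at was at 4.16 and 3.81 in Sertoli cells, at 3.68 and 3.74 in pre-granulosa cells, at 7.10 and 7.16 in testes and at 4.76 and 4.67 in ovaries. Only the testis arrays were above background, at least 2.35 log2 units (5.08-fold) over ovaries (limma adjusted p = 0.00443). Probe set 1421342_at of the same gene gave 3.97 and 4.42 with Sertoli RNA, 4.14 and 3.88 with pre-granulosa RNA, 5.79 and 6.02 with testis RNA and 4.47 and 4.37 with ovary RNA, and the testis arrays were again the only ones above background (limma adjusted p = 0.046 against ovaries). The first call was lost without either testis array, either ovary array or either Sertoli array. In the 6 fits without 1 of these arrays 0 members were called in testes minus ovaries, and without either pre-granulosa array 1 was.

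Kcnj3, a G protein-gated inward rectifier pore best known from the heart atrium, had a probe set (1455374_at) that read 5.60 and 7.52 on the Sertoli arrays, 7.70 and 5.68 on the pre-granulosa arrays, 9.44 and 9.69 on the testis arrays and 6.14 and 5.65 on the ovary arrays. Testes exceeded ovaries by 3.67 ± 0.818 (SE), the largest XY minus XX value of any member in the gonads, yet limma's adjusted p was 0.177. The 2 arrays of each sorted population lay more than 1 log2 unit apart, and that spread enters the pooled error. Sertoli cells and pre-granulosa cells overlapped. The other Kcnj3 probe sets, 1421468_at, 1444025_at and 1444336_at, were above 8 on both arrays of no group.

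**Figure D2:**
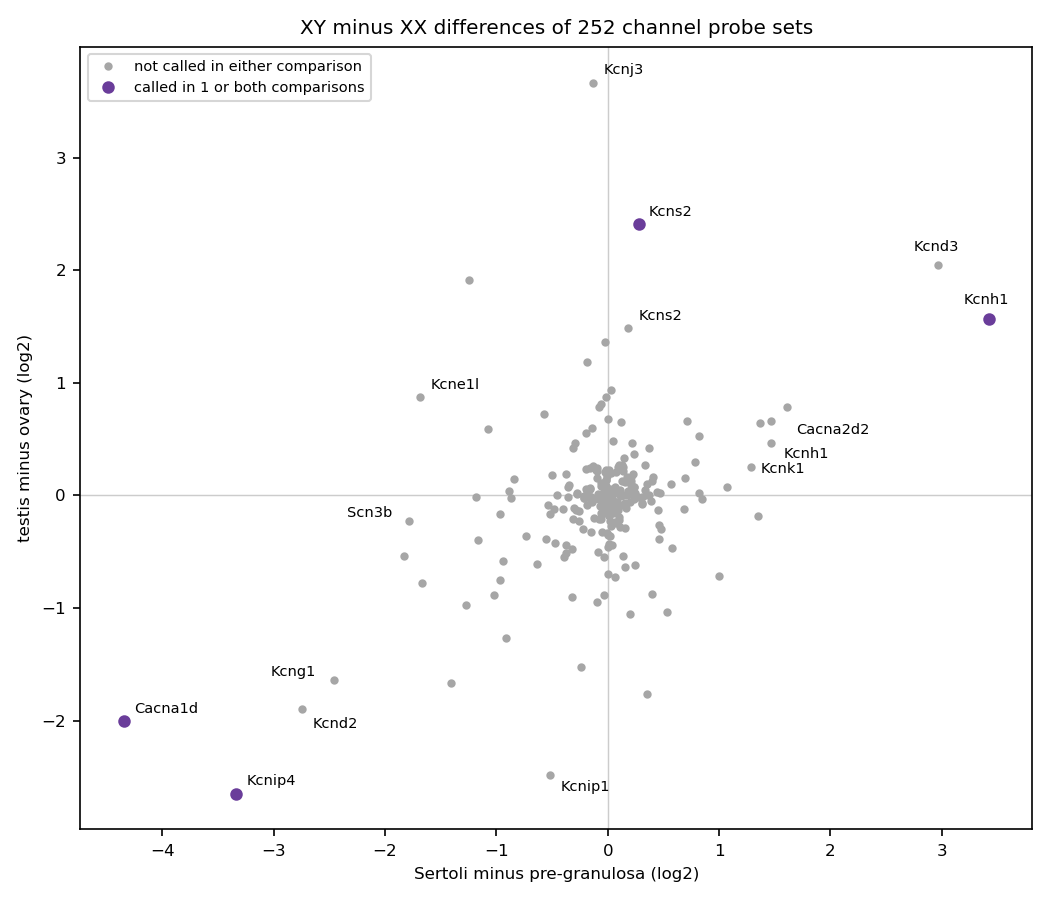
Difference of Sertoli minus pre-granulosa (horizontal, log2) against testis minus ovary (vertical, log2) for each of the 252 channel probe sets; purple points were called at an adjusted p of 0.01 in 1 or both comparisons. Cacna1d (-4.35, -2.01) and Kcnip4 (-3.33, -2.65) lie at the lower left, Kcnh1 (3.42, 1.57) at the right, and Kcns2 (0.28, 2.41) above the mass of points near 0; the Sertoli arrays of Kcnip4 and the sorted and ovary arrays of Kcns2 were under background.

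Further members above 8 differed by over 1 log2 unit between the sorted populations without passing the threshold. Cacna2d2, an extracellular alpha2delta subunit, read 8.73 and 8.46 on the Sertoli arrays, 7.23 and 7.03 on the pre-granulosa arrays, 7.24 and 7.52 on the testis arrays and 6.60 and 6.84 on the ovary arrays, so Sertoli cells were above every other array (1.47 against pre-granulosa cells, limma adjusted p = 0.0111). Its probe set 1451955_a_at lay between 6.75 and 7.36 throughout. Kcnk1, a K2P leak channel, was at 9.24 and 8.97 in Sertoli cells, at 7.82 and 7.83 in pre-granulosa cells, at 9.34 and 9.28 in testes and at 9.24 and 8.89 in ovaries, with pre-granulosa cells alone under 8 (1.28, limma adjusted p = 0.014). Kcne1l, a KCNE accessory subunit, gave 6.32 and 5.72 with Sertoli RNA, 7.62 and 7.80 with pre-granulosa RNA, 8.02 and 8.44 with testis RNA and 7.36 and 7.35 with ovary RNA. Sertoli cells were below all other arrays (-1.69 against pre-granulosa cells, limma adjusted p = 0.0166), while testes were above ovaries.

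Inside the naming rule, the Kcnq1ot1 probe set 1459443_at, whose values follow below, was also lower in Sertoli cells than in pre-granulosa cells (-1.83, limma adjusted p = 0.0464). Outside the naming rule, and named after their values were seen, 2 more members had an adjusted p under 0.05 and over 1 log2 unit between the sorted populations. Kcng1, another silent subunit, read 4.44 and 3.95 on the Sertoli arrays, 7.36 and 5.95 on the pre-granulosa arrays, 4.66 and 4.81 on the testis arrays and 6.57 and 6.19 on the ovary arrays, with XX arrays above XY arrays in both tissues and the Sertoli arrays under background (at least 1.87 lower than pre-granulosa cells, limma adjusted p = 0.0351). Scn3b, a sodium channel beta subunit, was at 4.04 and 4.13 in Sertoli cells, at 5.62 and 6.12 in pre-granulosa cells, at 4.39 and 4.50 in testes and at 4.97 and 4.38 in ovaries, with pre-granulosa cells above all other arrays and Sertoli cells under background (at least 1.09 lower than pre-granulosa cells, limma adjusted p = 0.015).

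Over both tissues, the XY arrays were above the XX arrays with no overlap for 16 members of 15 genes (6.35%), against 7.59% of all probe sets, and below them for 20 members of 17 genes (7.94%), against 8.04%. These shares are near the background. Among the members above 8, Kcnd3, both Kcnh1 probe sets, Kcnk1 and Cacna2d2 were on the XY side, and Cacna1d and the Kcnq1ot1 probe set 1458161_at on the XX side. A test of whether the XY minus XX difference differed between sorted cells and gonads called 0 members and 0% of all probe sets. At an unadjusted p under 0.05 it gave 37 members (14.7%) and 5142 probe sets in all (11.4%), and the lowest adjusted p of a member was 0.045, for Kcns2.

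**Figure D3:**
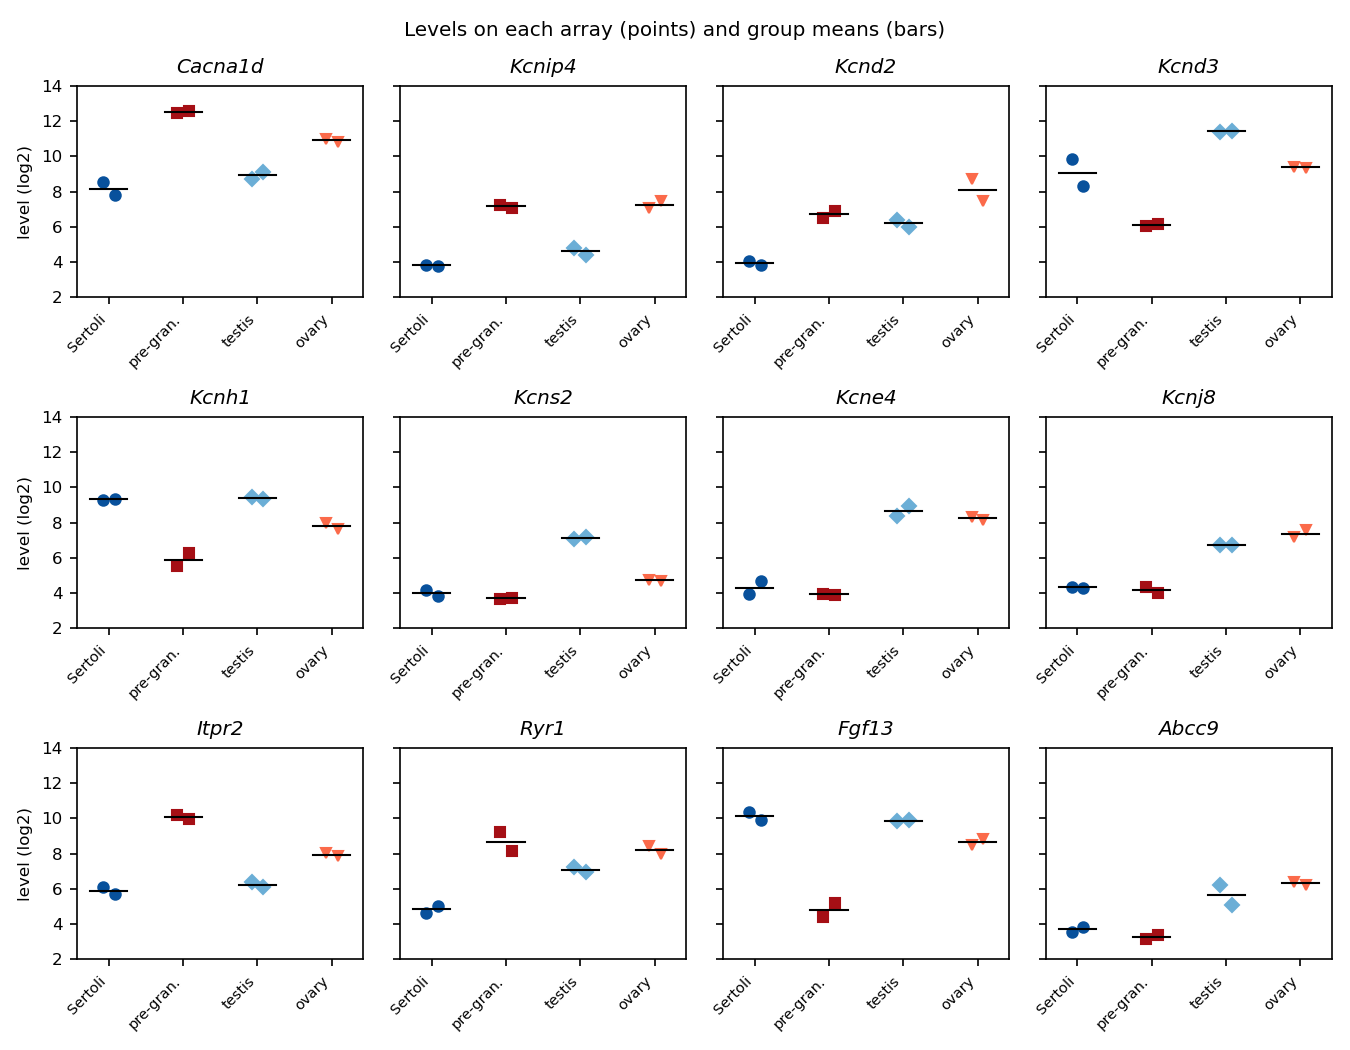
Level on each array (log2, points, 2 per group) with the group mean (bar) for 8 channel genes and for Itpr2, Ryr1, Fgf13 and Abcc9, which are not members by name. Cacna1d, Kcnip4, Kcnd2, Itpr2 and Ryr1 are higher in pre-granulosa cells and ovaries than in their XY counterparts, Kcnd3, Kcnh1 and Fgf13 are lower there, and Kcne4, Kcnj8 and Abcc9 lie under 5 in the sorted cells and above 5 in the gonads.

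Whole gonads also hold germ, interstitial, endothelial and blood cells, so the second question is which channel transcripts were lower or higher in the sorted supporting cells than in the organ they came from. In these bulk samples fewer cells of a type and less RNA per cell cannot be told apart. The sorted arrays and the gonad arrays also appear to have been normalized separately: the median difference of all probe sets was -0.21 in Sertoli cells minus testes and -0.25 in pre-granulosa cells minus ovaries. Differences between sorted cells and gonads are therefore given less that median, and p-values test the difference itself.

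Sertoli cells minus testes called 17 members lower (6.75%, against 7.4% of all probe sets) and 9 higher (3.57%, against 1.24%). Pre-granulosa cells minus ovaries called 17 lower (6.75%, against 7%) and 3 higher (1.19%, against 1.28%). With every array centred on its median the split in Sertoli cells minus testes was 7 lower and 14 higher, and with quantile normalization over all arrays 7 lower and 10 higher. In pre-granulosa cells minus ovaries these were 4 lower and 12 higher, and 5 lower and 9 higher, so the split between directions depends on the scaling. Under both scalings 15 of the 26 calls against testes were kept, 6 lower and 9 higher, and 7 of the 20 against ovaries, 4 lower and 3 higher. Without either testis array 0 members were called in Sertoli cells minus testes. Without either ovary array 2 and 1 were called in pre-granulosa cells minus ovaries, and with only the arrays compared 0.

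Called lower in both sorted populations were 9 probe sets of 9 genes (3.57%, against 4.04% of all), and Kcne4, Kcnj8 and Cacnb4 are those whose calls held under both scalings in both comparisons. Kcne4, an accessory subunit that inhibits potassium channels such as Kcnq1, gave 3.92 and 4.70 with Sertoli RNA, 3.97 and 3.91 with pre-granulosa RNA, 8.36 and 8.97 with testis RNA and 8.33 and 8.17 with ovary RNA. All sorted arrays were under background, and against that level Kcne4 was at least 3.88 log2 units lower in Sertoli cells than in testes (limma adjusted p = 0.00103) and at least 3.47 lower in pre-granulosa cells than in ovaries (limma adjusted p = 0.00117), with no median subtracted.

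Kcnj8 forms the pore of ATP-sensitive potassium channels of vascular smooth muscle and pericytes, together with the receptor Abcc9. It read 4.36 and 4.28 on the Sertoli arrays, 4.32 and 4.02 on the pre-granulosa arrays, 6.71 and 6.76 on the testis arrays and 7.18 and 7.56 on the ovary arrays, at least 1.95 log2 units lower in Sertoli cells than in testes (limma adjusted p = 0.00123) and at least 2.59 lower in pre-granulosa cells than in ovaries (limma adjusted p = 0.000807). Abcc9 was at 3.58 and 3.83 in Sertoli cells, at 3.18 and 3.39 in pre-granulosa cells, at 6.22 and 5.07 in testes and at 6.38 and 6.25 in ovaries. Its sorted arrays too were under background, and it was called lower against ovaries (limma adjusted p = 0.00396) but not against testes (limma adjusted p = 0.0142). Cacnb4, a cytoplasmic beta subunit that carries calcium pores to the membrane, gave 3.18 and 3.10 with Sertoli RNA, 3.21 and 3.19 with pre-granulosa RNA, 6.77 and 6.26 with testis RNA and 5.61 and 5.80 with ovary RNA. It was at least 1.74 lower in Sertoli cells than in testes (limma adjusted p = 0.000694) and at least 0.92 lower in pre-granulosa cells than in ovaries (limma adjusted p = 0.00146). These values are of probe set 1436912_at, and the other Cacnb4 probe sets, 1428928_at and 1452089_at, were called in neither comparison.

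Markers of germ, interstitial, endothelial and red blood cells were also among those called lower in the sorted cells. Those of macrophages, nervous tissue and steroidogenic cells were mostly not called. Germ cell markers averaged 4.35 and 4.75 on the Sertoli arrays, 4.38 and 4.29 on the pre-granulosa arrays, 9.08 and 8.95 on the testis arrays and 9.20 and 9.18 on the ovary arrays, and Ddx4, a germ cell RNA helicase, was at or under 4.66 in all sorted arrays. Interstitial and pericyte markers averaged 7.23 and 7.12 on the Sertoli arrays, 6.22 and 6.81 on the pre-granulosa arrays, 9.62 and 9.71 on the testis arrays and 8.96 and 9.12 on the ovary arrays, and 5 of 9 were called lower in each comparison. Of 9 endothelial markers 3 were lower in Sertoli cells than in testes and 5 in pre-granulosa cells than in ovaries, and of 4 erythroid markers 2 and 3. Of 9 macrophage markers 0 were called against testes and 2 were lower against ovaries, and they averaged 6.02 and 7.71 on the Sertoli arrays, 4.92 and 4.79 on the pre-granulosa arrays, 6.50 and 6.70 on the testis arrays and 6.82 and 7.16 on the ovary arrays. Of 4 steroidogenic markers 1 was called lower in Sertoli cells than in testes and 0 were called against ovaries. They averaged 8.23 and 9.39 on the Sertoli arrays and 11.37 and 11.11 on the testis arrays. With no median subtracted, their median difference was -2.49 against testes and 0.26 against ovaries. For the macrophage markers it was -0.02 against testes and -2.10 against ovaries. Of 9 neuron and glia markers Sox10 was higher in Sertoli cells than in testes (2.73 less the median, limma adjusted p = 0.00138), and no other was called. The part of these cells in the lower channel transcripts was not tested.

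The other members lower in both were of smaller size or near background. Kcnab1, a Kv beta subunit, read 4.22 and 3.32 on the Sertoli arrays, 3.57 and 3.96 on the pre-granulosa arrays, 5.90 and 5.93 on the testis arrays and 6.60 and 6.63 on the ovary arrays, and its call held under both scalings against ovaries and under neither against testes. Cacng2, whose product carries AMPA glutamate receptors, was at 6.19 and 6.38 in Sertoli cells, at 5.94 and 6.16 in pre-granulosa cells, at 7.42 and 7.35 in testes and at 7.27 and 7.36 in ovaries. The K2P channel Kcnk15 gave 5.16 and 5.50 with Sertoli RNA, 4.87 and 4.37 with pre-granulosa RNA, 7.20 and 6.69 with testis RNA and 6.23 and 6.34 with ovary RNA. For Kcns3, a silent subunit, the probe set had 5.24 and 4.92 on the Sertoli arrays, 4.99 and 4.71 on the pre-granulosa arrays, 6.44 and 6.20 on the testis arrays and 6.04 and 6.23 on the ovary arrays, and the Kcnk1 probe set 1455896_a_at read 5.05 and 5.0 on the Sertoli arrays, 4.56 and 4.68 on the pre-granulosa arrays, 6.12 and 5.88 on the testis arrays and 5.92 and 5.76 on the ovary arrays. In each of these the sorted arrays lay below the gonad arrays with no overlap. The calls of Cacng2, Kcnk15, Kcns3 and Kcnk1 were lost under both scalings in both comparisons. By the brighter Kcnk1 probe set, 1448690_at, Sertoli cells minus testes gave 0.005 less the median (limma adjusted p = 0.44). The last of the 9 is Kcns2 by 1457325_at, given above. Its call against testes held under both scalings. Its call against ovaries was lost under both, and there the arrays of pre-granulosa cells and of ovaries were all under background, so no size is given.

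Lower in Sertoli cells than in testes, and not called against ovaries, were 8 further probe sets. Cacng8, a glutamate receptor partner like Cacng2, was at 6.89 and 7.18 in Sertoli cells, at 7.30 and 7.92 in pre-granulosa cells, at 9.64 and 9.76 in testes and at 8.68 and 9.29 in ovaries (-2.46 less the median, limma adjusted p = 0.00281), and its call held under both scalings. So did that of Kcne1l (-2.0, limma adjusted p = 0.00305). Scn2b, a sodium channel beta subunit with an immunoglobulin fold, gave 6.99 and 6.09 with Sertoli RNA, 6.27 and 6.63 with pre-granulosa RNA, 8.85 and 8.54 with testis RNA and 8.25 and 8.64 with ovary RNA (-1.95, limma adjusted p = 0.00799). Its sorted arrays were all under 7 and its gonad arrays all above 8, and its call was lost under both scalings.

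The remaining 5 of these are the second Kcns2 probe set, given above, and probe sets of 4 other genes. The Shaker-type pore Kcna4 read 3.95 and 3.76 on the Sertoli arrays, 3.72 and 3.98 on the pre-granulosa arrays, 6.27 and 6.53 on the testis arrays and 5.07 and 6.37 on the ovary arrays. Scn3a, a sodium channel pore of the embryonic brain, was at 4.96 and 4.33 in Sertoli cells, at 4.93 and 4.53 in pre-granulosa cells, at 6.52 and 6.47 in testes and at 5.78 and 5.64 in ovaries, while Kcnmb2, an inactivating beta subunit of calcium-activated channels, gave 3.53 and 3.64 with Sertoli RNA, 3.42 and 3.79 with pre-granulosa RNA, 5.23 and 5.88 with testis RNA and 4.57 and 4.79 with ovary RNA. Kcnk3, an acid-sensitive leak channel, read 6.90 and 7.23 on the Sertoli arrays, 7.30 and 6.78 on the pre-granulosa arrays, 8.96 and 8.48 on the testis arrays and 7.93 and 7.64 on the ovary arrays. All 4 had sorted arrays below gonad arrays. Kcna4, Scn3a and Kcnk3 lost the call under both scalings, and Kcnmb2 and the second Kcns2 probe set under 1 of them.

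Against ovaries, 8 further probe sets were lower in pre-granulosa cells. Kcnt2, a sodium-activated potassium channel, was at 3.31 and 3.60 in Sertoli cells, at 3.17 and 3.03 in pre-granulosa cells, at 4.81 and 4.51 in testes and at 5.67 and 7.17 in ovaries. The pre-granulosa arrays were under background and the 2 ovary arrays lay more than 1 log2 unit apart (at least 1.64 log2 units, limma adjusted p = 0.00613). The T-type calcium pore Cacna1g gave 6.04 and 6.58 with Sertoli RNA, 5.23 and 5.40 with pre-granulosa RNA, 6.17 and 6.77 with testis RNA and 7.0 and 7.38 with ovary RNA (-1.62 less the median, limma adjusted p = 0.00805). Cacng4 read 4.87 and 5.39 on the Sertoli arrays, 4.78 and 4.55 on the pre-granulosa arrays, 6.10 and 5.80 on the testis arrays and 6.25 and 6.42 on the ovary arrays and was at least 1.56 lower in pre-granulosa cells (limma adjusted p = 0.00569).

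Kcnk5, an acid-sensitive K2P channel, was at 6.84 and 7.16 in Sertoli cells, at 6.97 and 6.91 in pre-granulosa cells, at 7.42 and 7.71 in testes and at 8.31 and 8.27 in ovaries (-1.10 less the median, limma adjusted p = 0.00532). The Kcnk3 probe set 1426058_a_at gave 6.46 and 6.77 with Sertoli RNA, 6.16 and 6.17 with pre-granulosa RNA, 7.41 and 7.32 with testis RNA and 7.43 and 7.56 with ovary RNA (-1.08, limma adjusted p = 0.00401). Kcnk1 by probe set 1448690_at (-0.98), Kcnh1 by 1435994_at (-1.67) and Kcnd3 (-3.02), whose values are given above, complete the group. The other Kcnh1 probe set, 1418414_at, went the other way (1.23 less the median, limma adjusted p = 0.0169). Of these 8, Kcnt2 lost its call under median centring and the other 7 under both scalings.

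Higher in both sorted populations were Kcnma1 and Scn1a (2 probe sets, 0.794%, against 0.517% of all). Kcnma1, the pore of the large-conductance calcium-activated potassium channel, had a probe set (1424848_at) that read 6.60 and 6.58 on the Sertoli arrays, 6.75 and 7.03 on the pre-granulosa arrays, 5.07 and 4.85 on the testis arrays and 4.51 and 4.49 on the ovary arrays. Sorted arrays were above gonad arrays by 1.84 in Sertoli cells (limma adjusted p = 0.00224) and, against ovaries at background, by at least 2.10 in pre-granulosa cells with no median subtracted (limma adjusted p = 0.00101). Probe sets of this gene disagreed: 1428948_at read 7.17 and 7.0 on the Sertoli arrays, 7.59 and 8.72 on the pre-granulosa arrays, 8.60 and 8.45 on the testis arrays and 8.05 and 7.83 on the ovary arrays, with Sertoli arrays below testis arrays and overlap in the XX arrays. Scn1a, a neuronal sodium pore, was at 4.94 and 4.99 in Sertoli cells, at 5.04 and 4.78 in pre-granulosa cells, at 3.80 and 3.77 in testes and at 3.88 and 3.65 in ovaries, all gonad arrays being under background and the sorted arrays close to it. The other Scn1a probe sets, 1450120_at and 1450121_at, were called in neither comparison.

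Kcnt1, a sodium-activated potassium channel, was higher in Sertoli cells than in testes by probe set 1458428_at, which gave 9.94 and 9.60 with Sertoli RNA, 9.41 and 9.64 with pre-granulosa RNA, 7.89 and 7.81 with testis RNA and 8.32 and 8.61 with ovary RNA (2.14 less the median, limma adjusted p = 0.00225). All sorted arrays were above all gonad arrays. Its probe set 1439486_at read 9.02 and 9.02 on the Sertoli arrays, 8.89 and 8.36 on the pre-granulosa arrays, 7.64 and 8.14 on the testis arrays and 8.75 and 8.78 on the ovary arrays, where the pre-granulosa cells and ovaries overlapped. Kcnh1 by 1418414_at was 2.20 higher in Sertoli cells than in testes (limma adjusted p = 0.00216), but by 1435994_at the value was 0.15, so the 2 probe sets of the gene disagree in this comparison.

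Smaller values were called higher in Sertoli cells than in testes for Cacna2d2 (1.43 less the median, limma adjusted p = 0.00815), for the alpha2delta subunit Cacna2d4, for Kcne1 and for Kcnip1. Cacna2d4 was at 6.58 and 6.66 in Sertoli cells, at 6.51 and 6.78 in pre-granulosa cells, at 5.59 and 5.70 in testes and at 5.73 and 5.87 in ovaries. Kcne1, the partner of Kcnq1 in a slow cardiac current, gave 5.53 and 5.83 with Sertoli RNA, 4.81 and 4.90 with pre-granulosa RNA, 4.15 and 4.26 with testis RNA and 4.04 and 4.33 with ovary RNA, with both gonads under background. For Kcnip1 the probe set 1454504_at read 6.01 and 6.22 on the Sertoli arrays, 6.01 and 5.99 on the pre-granulosa arrays, 4.94 and 5.03 on the testis arrays and 5.10 and 5.43 on the ovary arrays. In all 3 the sorted arrays exceeded the gonad arrays. Kcnip1 probe set 1448459_at, by contrast, had its highest arrays in ovaries, at 5.61 and 7.20, with all others at or under 4.28.

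Kcnq1ot1 is a long nuclear RNA transcribed from the paternal allele and silences neighbouring imprinted genes. Probe set 1442029_at was at 10.48 and 9.98 in Sertoli cells, at 9.96 and 10.98 in pre-granulosa cells, at 6.84 and 6.91 in testes and at 8.49 and 8.30 in ovaries (3.57 higher in Sertoli cells than in testes, limma adjusted p = 0.00254). Probe set 1459443_at gave 5.70 and 5.39 with Sertoli RNA, 7.0 and 7.74 with pre-granulosa RNA, 3.79 and 3.58 with testis RNA and 4.68 and 3.76 with ovary RNA, at least 2.59 higher in pre-granulosa cells than in ovaries (limma adjusted p = 0.00384). Sorted arrays exceeded gonad arrays in both. Probe sets 1457781_at and 1458161_at also had sorted arrays above gonad arrays and were not called, and in the other 2 probe sets the arrays overlapped. Kcnq1, the potassium pore of the same region, had XX arrays of 6.77 and 6.47 in pre-granulosa cells and of 6.34 and 6.99 in ovaries, above the XY arrays of both tissues, and was called in no comparison.

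**Figure D4:**
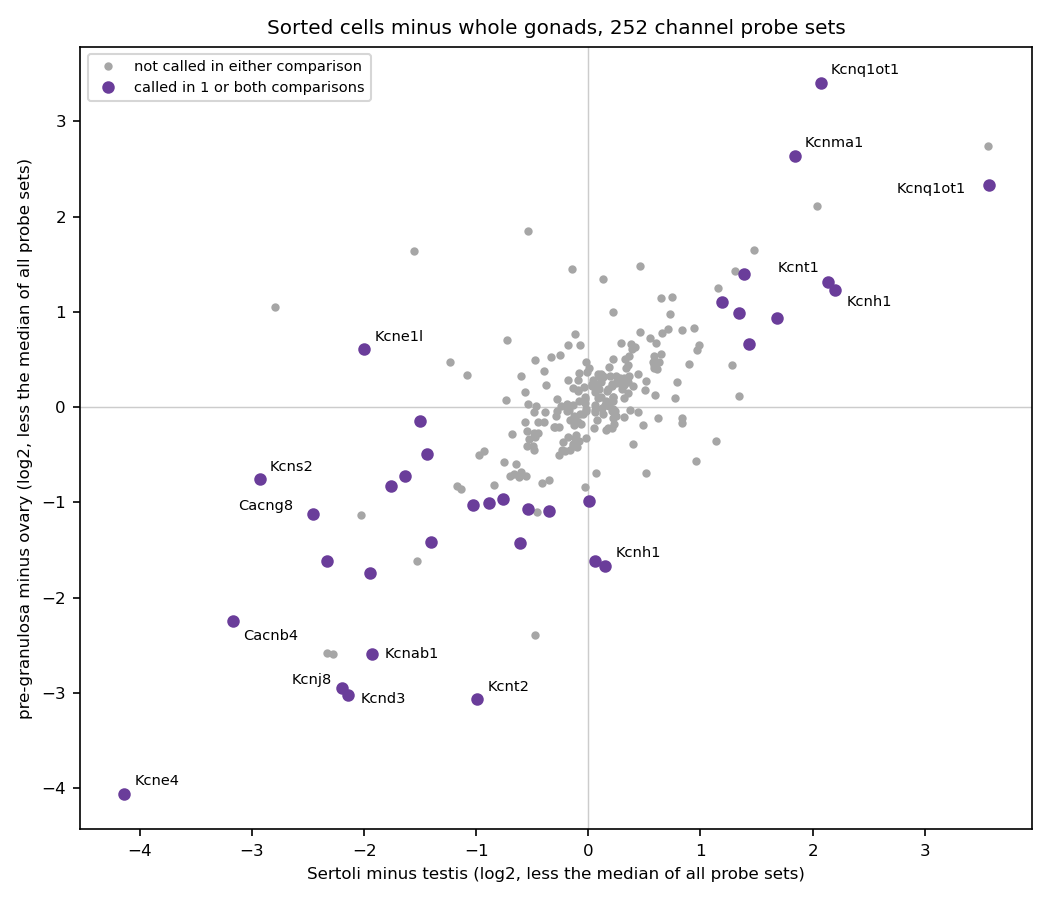
Difference of Sertoli cells minus testes (horizontal, log2) against pre-granulosa cells minus ovaries (vertical, log2), each less the median of all probe sets, for the 252 channel probe sets; purple points were called in 1 or both. Kcne4 lies farthest to the lower left at -4.14 and -4.06, with its sorted arrays under background. Kcnq1ot1 by 1442029_at and 1459443_at and Kcnma1 by 1424848_at lie at the upper right, while Kcnma1 by 1428948_at lies at -1.23 and 0.47.

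Members above 8 that were called in no comparison were 7 probe sets. The T-type calcium pore Cacna1h read 9.20 and 9.31 on the Sertoli arrays, 10.08 and 9.08 on the pre-granulosa arrays, 8.27 and 9.08 on the testis arrays and 9.51 and 9.63 on the ovary arrays, overlapping between Sertoli and pre-granulosa cells and between pre-granulosa cells and ovaries. Cacna2d1, the alpha2delta subunit that gabapentin binds, was at 6.22 and 7.36 in Sertoli cells, at 4.66 and 7.28 in pre-granulosa cells, at 9.46 and 9.20 in testes and at 8.89 and 8.72 in ovaries. Its sorted arrays were below its gonad arrays (limma adjusted p = 0.072 against testes and 0.0527 against ovaries), and the lowest array, replicate 1 of the pre-granulosa cells, is the one with the largest Gapdh 3′ to 5′ difference. The part of RNA quality in that value was not tested. The other 5 were Kcnj3, Kcnma1 1428948_at, Kcnt1 1439486_at and 2 Kcnq1ot1 probe sets.

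Genes that work beside the channels were read from 5 lists. The lists were chosen with earlier results of these data known, and only the brightest probe set of each gene was read. Their shares, set beside those of all probe sets, are not a test of enrichment. Of 25 measured binding partners (26 in the list), 1 was called between Sertoli and pre-granulosa cells, on the higher side, against 0.999% of all probe sets. Fgf13, which binds the cytoplasmic end of sodium channel pores, gave 10.38 and 9.91 with Sertoli RNA, 4.42 and 5.18 with pre-granulosa RNA, 9.88 and 9.89 with testis RNA and 8.47 and 8.84 with ovary RNA. It was 5.35 ± 0.301 higher in Sertoli cells than in pre-granulosa cells (SE, limma adjusted p = 0.00122), and pre-granulosa cells were also lower than ovaries (-3.60 less the median, limma adjusted p = 0.00138). Like Kcnd3 and Kcnh1 by 1435994_at, Fgf13 had its lowest arrays in pre-granulosa cells. The other Kcnh1 probe set, 1418414_at, had its lowest arrays in ovaries.

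In the sorted minus gonad comparisons 3 partners were lower in Sertoli cells (7.4% of all probe sets were), 4 were lower in pre-granulosa cells (7% of all were), and Stac3, a muscle calcium channel adaptor, was higher in pre-granulosa cells (1.51 less the median, limma adjusted p = 0.00736). Ank2, an ankyrin that anchors channels and exchangers, read 4.01 and 3.97 on the Sertoli arrays, 4.29 and 3.85 on the pre-granulosa arrays, 8.17 and 8.36 on the testis arrays and 6.58 and 6.01 on the ovary arrays. Its sorted arrays were under background, at least 3.48 lower in Sertoli cells than in testes with no median subtracted (limma adjusted p = 0.00064). Rimbp2, which ties calcium channels to release sites in synapses, was at 4.77 and 4.99 in Sertoli cells, at 4.98 and 5.08 in pre-granulosa cells, at 7.77 and 7.46 in testes and at 6.66 and 6.25 in ovaries (-2.53, limma adjusted p = 0.00113). Both were called lower in both sorted populations. Dpp10, a Kv4 partner, was called against testes only (-0.92, limma adjusted p = 0.00817), and that it differs from the value against ovaries (-0.76, limma adjusted p = 0.0114) was not tested.

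Of 20 measured ion pumps and exchangers (23 in the list) none was called between XY and XX groups, and 3 were lower in both sorted populations, against 4.04% of all probe sets. They were Slc8a1, the sodium-calcium exchanger, whose sorted arrays were under background (at least 3.13 lower than in testes and at least 2.63 lower than in ovaries, with no median subtracted), and the pump regulators Fxyd1 (-2.63 against testes and -1.74 against ovaries, less the median) and Fxyd5 (-1.92 and -2.31). Of 38 measured other cation channels (44 listed), the ATP-gated P2rx2 (1.74) and P2rx4 (1.09) were higher in Sertoli cells than in testes, against 1.24% of all probe sets, and Trpc6 and P2rx7 (-1.83 and -2.03) were lower in both sorted populations than in testes and ovaries. All sorted Trpc6 arrays were under background, at least 1.73 below testes and at least 1.53 below ovaries with no median subtracted. Itpr2 was the store release gene called against ovaries, 2.40 higher in pre-granulosa cells (limma adjusted p = 0.00209). None of 17 measured chloride channels (24 listed) was called in any of these 4 comparisons. The medians of these 5 lists in Sertoli minus pre-granulosa cells ran from -0.35 for calcium release to 0.18 for the pumps, beside 0.01 for all probe sets.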

How the data were processed

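Transcripts of 8 samples in 4 groups of 2 were measured on 1 array each. The deposited values are log2 levels; per the submitters' processing notes the tool was RMA, its version not stated. The ranked values differed by at most 0.175 within the 4 sorted-cell arrays and 0.146 within the 4 gonad arrays, with a median of 0.383 between the sets, so the sets appear to have been normalized separately. Values were used as deposited. Their depth is set by the number of arrays.

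Of 45101 probe sets, 64 array controls were left out and 45037 tested with limma 3.58.1 in R 4.3.3: 1 mean per group over all 8 arrays, eBayes with 4 residual degrees of freedom, two-sided p-values, Benjamini-Hochberg adjustment over all 45037, and calls at 0.01. Symbols came from the platform annotation, and all 252 member probe sets matched RefSeq gene identifiers. For listed genes that are not members the probe set with the highest mean was taken. Members and lists were chosen with earlier results of these data known. Named were members above log2 8 on both arrays of a group and members called in any comparison, with exceptions stated. Where both arrays of a group were at or under 4.78, a difference between groups is given from that level. The figures, medians of lists and differences of differences are exceptions. Motifs were searched by exact match in RefSeq promoters (GRCm38.p6). The fit was tested on simulated data. Samples were not paired by replicate number in the main fit, since the labels do not say whether same-numbered samples belong together. Correlations of same-numbered deviations ran from -0.156 to 0.049. Alternatives were quantile normalization, median centring, a filter on dim probe sets, a mean-variance trend, a weight per group, only the arrays compared, another threshold, a replicate block and the omission of each array.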

Additional observations from a re-analysis of the deposited data

Results flagged for a closer look

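For 17 channel probe sets (6.75%, against 6.47% of all probe sets) the XY arrays lay above the XX arrays in one tissue and below them in the other, with no overlap in either. This share is near the background, and 10 of the 17 are members named in the text. The values given for these 10 are the XY minus XX difference in sorted cells less that in gonads (log2), and none passed the adjusted p of 0.01 when that difference was tested in limma. Kcne1l had -2.56 (adjusted p = 0.061). Kcnt2 had 2.11, Cacna1g 1.71, Kcnt1 by 1439486_at 1.27, Cacng4 0.85 and Kcnk3 by 1426058_a_at 0.58. Kcnma1 had -1.66 by 1428948_at and -0.76 by 1424848_at, Cacng8 had -1.29 and Cacnb4 -0.88. Kcns2 was added because the same test gave an adjusted p of 0.045, with a value of -2.13. All 4 sorted arrays of Kcnt2, Cacnb4 and Kcns2 were under background, so in sorted cells their sign compares values that were not above it.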

How the results depend on the processing

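Counts of called members depended on the setting. Of 808 recomputed values of 51 called results, 433 kept the call, 375 lost it and 0 reversed. The 433 include those at the looser threshold of 0.05, where a call cannot be lost. Only quantile normalization, median centring and the omission of an array of a compared group can change the difference. Under all other settings it stays the same, so there its sign could not reverse. With results chosen for being called, the 0 reversals do not measure how stable directions are. Sertoli minus pre-granulosa had 3 calls, 0 with only the arrays compared, 13 at 0.05, and 2 to 7 without 1 array. Testes minus ovaries had 2 calls, 1 with quantile normalization and with only the arrays compared, 5 with a weight per group, 4 at 0.05, 0 with the replicate block, and 0 to 1 without 1 array. Sertoli cells minus testes had 26 calls, 17 with quantile normalization, 16 with only the arrays compared, 67 at 0.05, 14 with the replicate block, and 0 to 30 without 1 array, the 0 being without either testis array. Pre-granulosa cells minus ovaries had 20 calls, 10 with a weight per group, 0 with only the arrays compared, 64 at 0.05, 9 with the replicate block, and 1 to 16 without 1 array, the lowest being without either ovary array. The difference of the XY minus XX differences had 0 calls and 1 at 0.05. Fits with only the arrays compared, or without 1 array, have fewer degrees of freedom, and the cause of the other shifts was not tested. The labels state no pairing for the replicate block, and the small correlations of same-numbered samples cannot settle whether there was one. With 2 arrays per group, changes that miss the threshold were not shown to be absent.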
